A study of Canis lupus familiaris with 33 samples.

Results

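The genes described here are 9 surface or lysosomal receptors by which macrophages and monocytes are commonly recognised: MARCO, MSR1, CD36, STAB1, MRC1, CD163, CD14, CSF1R and CD68. All probesets whose only gene symbol in the platform annotation was one of these names were taken, which gave 18 of the 43035 probesets on the array and 9 of the 15115 genes named there. MRC1 had 3 probesets, CD163 had 4, MARCO, STAB1, CSF1R and CD68 had 2 each, and MSR1, CD36 and CD14 had 1. The probeset with the highest mean over all dogs stood for a gene and is called its brightest probeset below. The dimmer ones were followed beside it.

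Macrophages of a lymph node line the sinuses, where they filter the lymph, and also lie in the medulla, the follicles and the T-cell zone. Scavenger receptors bind modified lipoproteins, bacterial surfaces and cell debris and carry them to the lysosome, while CSF1R, the receptor for CSF1 and IL34, keeps the cells alive. Several of these genes are not restricted to macrophages: CD36 is abundant in fat and capillary endothelium, and STAB1 and MRC1 are also found on sinus and lymphatic endothelium.

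Canine lymph node RNA was measured on Affymetrix Canine Genome 2.0 arrays to compare diffuse large B-cell lymphoma (DLBCL), a tumour of mature B cells, with healthy nodes. The 33 arrays comprised 16 tumours of dogs with no previous chemotherapy (naïve, aged 2.7 to 13.3 years), 7 tumours of dogs that had relapsed after chemotherapy (aged 6.4 to 11.8 years, sampled 13 to 672 days after the last treatment, with CHOP or another protocol by the labels) and 10 arrays of nodes from dogs put down for conditions other than lymphoma, whose age, sex and breed were not given in the labels. The case numbers assign 4 of the healthy arrays to 1 animal, healthy dog 1, and DLBCL samples 11 (naïve) and 12 (relapsed) to 1 animal, which leaves 22 animals with DLBCL and 7 healthy ones. Values are RMA-normalised log2 intensities, on which 1 unit is a doubling, and arrays of 1 dog were averaged. The nodes were bulk tissue, so that fewer cells of a type and less RNA per cell cannot be told apart in any value below.

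The groups differed in RNA quality. The RNA integrity number (RIN) was 8.9 to 10 in the tumours, 9.15 in healthy dog 1 as the mean of its 4 arrays, and 5.8 to 7.7 in the 6 other healthy dogs. Apart from healthy dog 1, RIN and disease state thus cannot be told apart. Array medians were 6.85 to 6.97, and 17 control probesets with no canine target had means of 2.79 to 4.56. CD79A, a chain of the B-cell receptor, rose by 0.72 in DLBCL (limma adjusted p = 0.00639), and CD28, a co-stimulatory receptor of T cells, fell by 3.81 (adjusted p = 1.31e-07).

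In DLBCL, 4 of the 9 genes were lower than in healthy nodes by their brightest probesets: STAB1, MARCO, MRC1 and CSF1R. None of the 9 was higher by that probeset, although CD163 was higher by 2 of its dimmer probesets. Counted by probeset, 5 of 18 fell and 2 of 18 rose at an adjusted p under 0.05 (limma, 22 against 7 dogs), where 13.6% of all probesets fell and 19% rose. By gene the share of all genes that fell was 14.8% and the share that rose was 20.0%. The median log2 difference of the 9 genes was −0.72, against 0.06 over all genes, and 7 of the 9 lay below 0. At an unadjusted p under 0.05 there were 4 genes and 9 probesets.

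**Figure D1:**
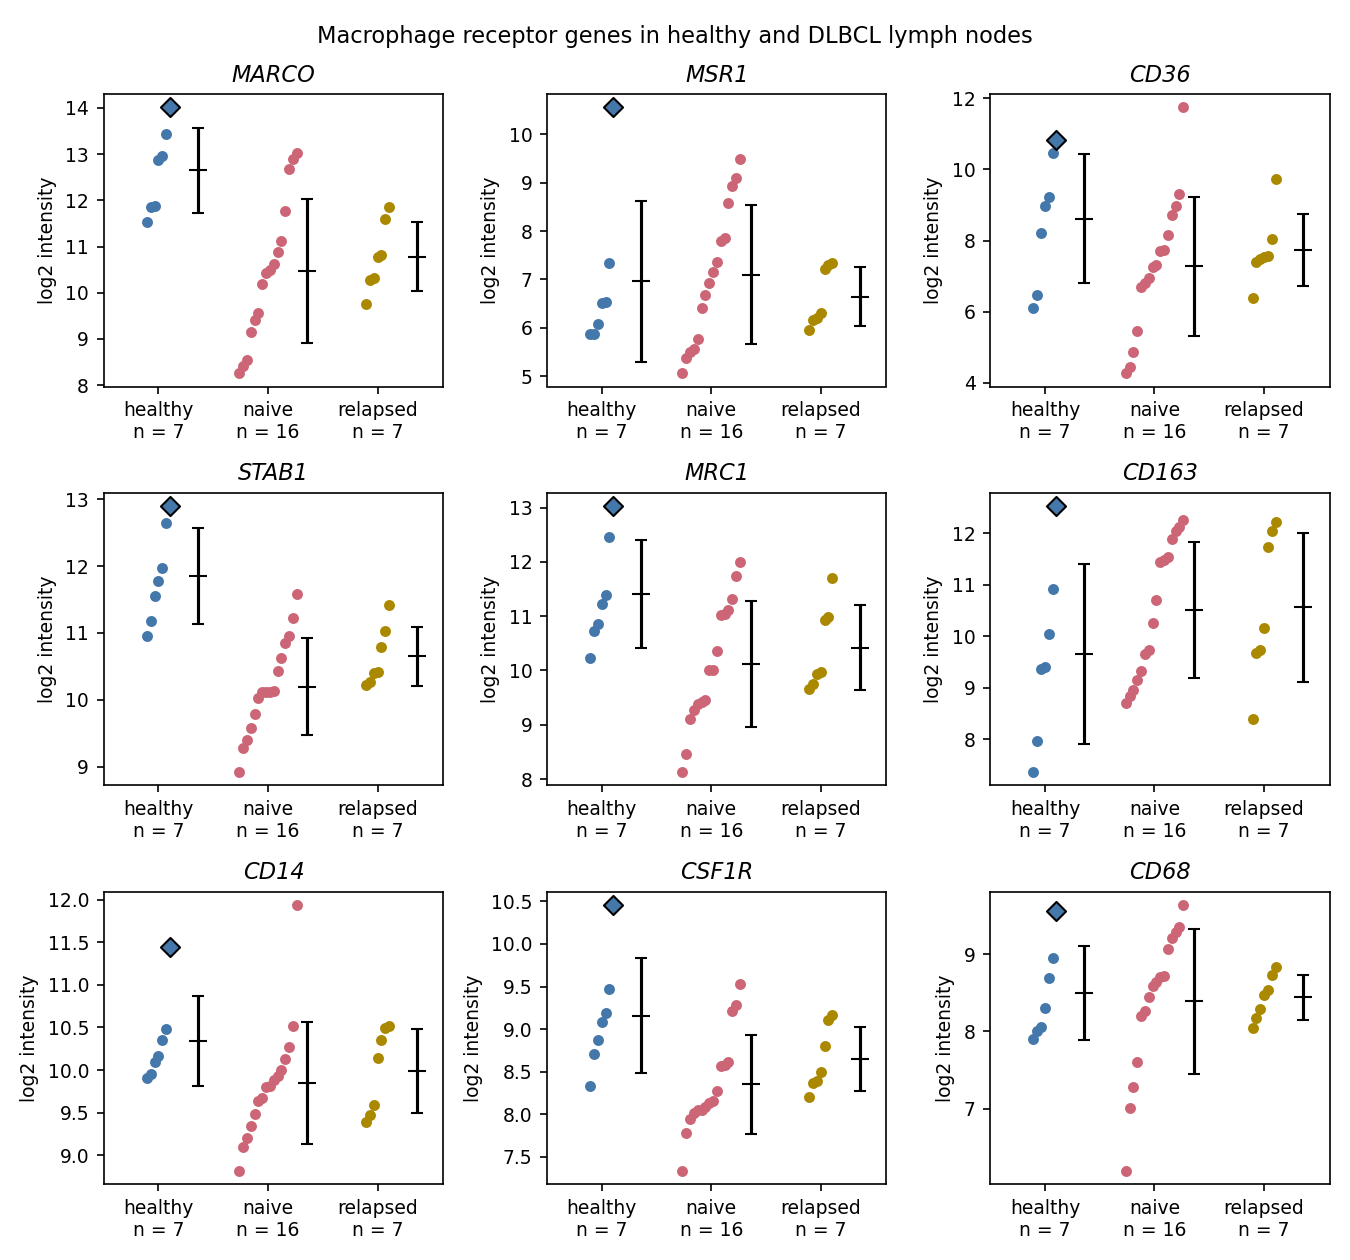
Log2 intensity (vertical axes) of the brightest probeset of each gene in healthy, naïve and relapsed nodes, 1 point a dog and group, with the mean and SD beside the points and healthy dog 1 as a black-edged diamond. Most tumours lie below the healthy dogs in STAB1 and MARCO, the groups overlap widely in MSR1, CD163, CD36 and CD68, and healthy dog 1 is the highest healthy point in all 9 panels.

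STAB1, or stabilin-1, is a scavenger receptor of sinus macrophages and sinus endothelium. Its level was 10.95, 11.8 and 12.9 as the lowest, median and highest of 7 healthy dogs, and 8.92, 10.2 and 11.6 in 22 dogs with DLBCL. Every dog with DLBCL lay below the healthy median, and 17 of 22 lay below all healthy dogs. It fell by 1.502 ± 0.287 (SE) on the log2 scale, with healthy nodes 2.83-fold higher (adjusted p = 0.000175, by limma). STAB1's dimmer probeset differed by −0.77 (adjusted p = 0.0606), and the 2 correlated at r = 0.991 over the tumours.

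MARCO, a class A scavenger receptor of marginal zone and sinus macrophages that binds bacteria and particles, had the largest difference of the 9 genes. Healthy dogs had 11.5, 12.9 and 14.01 as lowest, median and highest, and dogs with DLBCL had 8.26, 10.6 and 13.0. Of 22 dogs with DLBCL, 17 lay below every healthy dog and 2 lay above the healthy median. MARCO fell by 2.11 ± 0.527 (SE), a 4.30-fold higher level in healthy nodes (adjusted p = 0.00267). Its dimmer probeset fell by 1.94 (adjusted p = 0.00585).

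MSR1, the class A scavenger receptor first known for taking up modified lipoprotein, was not called. Its level was 5.86, 6.52 and 10.6 in healthy dogs and 5.06, 7.04 and 9.50 in DLBCL, with 12 dogs with DLBCL above the healthy median and 10 below it. The difference was 0.02, with a 95% interval of −1.15 to 1.18 (adjusted p = 0.985). The value rests on healthy dog 1, the highest of all dogs, without which it was 0.62 (adjusted p = 0.397).

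CD36, a class B scavenger receptor and fatty acid transporter, had the largest SD of the 9 genes in both groups. It ranged over 6.10, 8.98 and 10.8 in healthy dogs and 4.27, 7.501 and 11.7 in DLBCL. The lowest tumour and the next, at 4.44, lay within the control probeset means of 2.79 to 4.56. Of 22 dogs with DLBCL, 18 lay below the healthy median and 1, sample 22, lay above every healthy dog. The difference was −1.19, with an interval of −2.69 to 0.31 (adjusted p = 0.222).

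MRC1, the mannose receptor, was 10.2, 11.2 and 13.0 in healthy dogs and 8.13, 10.0 and 12.0 in DLBCL. It fell by 1.18 ± 0.437 (SE, adjusted p = 0.0374, by limma), with 12 of 22 dogs with DLBCL below all healthy dogs. Its 2 dimmer probesets differed by −0.50 and −0.39 (adjusted p = 0.467 and 0.533), although they correlated with the brightest at 0.965 and 0.982 over the tumours. The call was lost without any one of healthy dogs 1, 2, 5 or 7, with differences of −0.92, −1.01, −1.19 and −1.21 (adjusted p = 0.128, 0.104, 0.0574 and 0.0528).

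CD163, the receptor that clears complexes of haemoglobin and haptoglobin, stood on the other side. Its brightest probeset was 7.36, 9.40 and 12.5 in healthy dogs and 8.70, 10.5 and 12.3 in DLBCL. The difference of 0.95 had an interval of −0.25 to 2.14 (adjusted p = 0.223), with 17 of 22 dogs with DLBCL above the healthy median. Of the dimmer CD163 probesets, one rose by 1.60 ± 0.559 (SE, adjusted p = 0.0282) and one by 1.48 ± 0.507 (SE, adjusted p = 0.0249), and in both of them all 22 dogs with DLBCL lay above the healthy median. These 2 and the brightest correlated at 0.973 to 0.989 over the tumours. In the one that rose by 1.48, the lowest healthy dog, at 4.54, lay within the control probeset means of 2.79 to 4.56. The remaining CD163 probeset was dim, with means of 5.16 in DLBCL and 5.01 in healthy nodes, and differed by 0.15 (adjusted p = 0.404). Both calls were lost without any one of healthy dogs 3, 4, 6 or 7, with differences of 1.26 to 1.55 (adjusted p from 0.0512 to 0.0775).

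CD14, the co-receptor that hands lipopolysaccharide to TLR4, was 9.90, 10.2 and 11.4 in healthy dogs and 8.81, 9.85 and 11.9 in DLBCL. The difference of −0.42 had an interval of −0.95 to 0.11 (adjusted p = 0.221). Sample 5 was the one tumour above every healthy dog, and without it CD14 fell by 0.52 (adjusted p = 0.049).

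CSF1R, the receptor tyrosine kinase on which most macrophages depend, was 8.34, 9.08 and 10.5 in healthy dogs and 7.34, 8.38 and 9.53 in DLBCL. It fell by 0.72 ± 0.240 (SE), with healthy nodes 1.64-fold higher (adjusted p = 0.0221), and 10 of 22 dogs with DLBCL lay below all healthy dogs. The dimmer CSF1R probeset differed by −0.35 (adjusted p = 0.297). Without healthy dog 1 the brightest probeset differed by −0.50 (adjusted p = 0.104), and without healthy dog 2 by −0.66 (adjusted p = 0.0534).

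CD68, a glycoprotein of the lysosome membrane long used to stain macrophages, was 7.91, 8.30 and 9.56 in healthy dogs and 6.19, 8.56 and 9.64 in DLBCL. The difference was −0.10, with an interval of −0.75 to 0.56 (adjusted p = 0.846). Its dimmer probeset differed by 0.79 (adjusted p = 0.116) and 10 of 22 dogs with DLBCL exceeded every healthy dog there. The 2 CD68 probesets correlated at only 0.546 over the tumours, so that the choice of probeset matters for this gene.

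**Figure D2:**
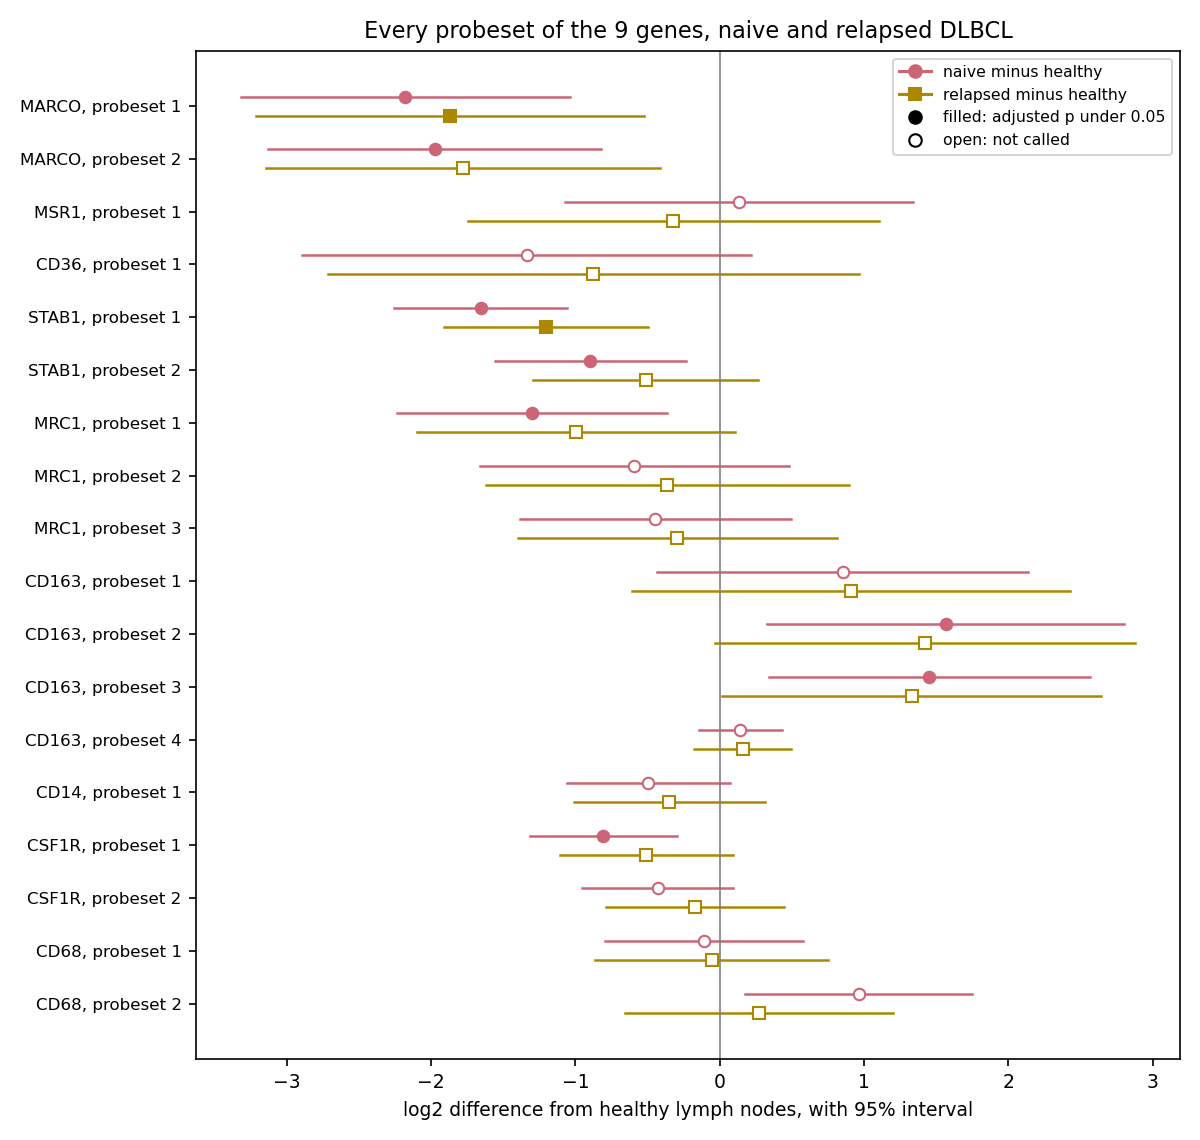
Log2 difference from healthy nodes (horizontal axis, points with 95% intervals) of all 18 probesets in naïve (circles) and relapsed (squares) DLBCL, filled where the adjusted p was under 0.05. Probeset 1 of each gene is the brightest and the others follow by their mean in healthy nodes. MARCO and STAB1 lie left of 0 in both tumour groups, and CD163 lies right of it.

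Naïve and relapsed tumours were compared with the same 7 healthy dogs, so their differences share those controls. In naïve DLBCL, 6 of 18 probesets fell and 2 rose, against 13.6% and 19.2% of all probesets. By gene, 4 of 9 fell and none rose (15.1% and 20.0% of all genes). In relapsed DLBCL, 2 of 18 probesets fell, those of MARCO and STAB1, and none rose, against 8.43% and 10.2% of all probesets, and by gene the shares of all genes were 8.96% and 10.8%. At an unadjusted p under 0.05 there were 9 probesets in the naïve and 4 in the relapsed comparison by limma. STAB1 had a lowest, median and highest of 8.92, 10.1 and 11.6 in 16 naïve tumours and of 10.2, 10.4 and 11.4 in 7 relapsed tumours. It fell by 1.66 ± 0.293 (SE) in naïve tumours (adjusted p = 6.78e-05) and by 1.203 ± 0.345 (SE) in relapsed tumours (adjusted p = 0.0146). MARCO was 8.26, 10.5 and 13.0 in naïve and 9.77, 10.8 and 11.9 in relapsed tumours, and it fell by 2.18 in the former (adjusted p = 0.00319) and fell by 1.87 in the latter (adjusted p = 0.0449). Without healthy dog 1 the MARCO difference in relapsed tumours was −1.64 (adjusted p = 0.0978). MRC1 and CSF1R fell by 1.30 and 0.81 in naïve tumours (adjusted p = 0.0281 and 0.0128) and differed by −0.996 and −0.51 in relapsed tumours (adjusted p = 0.207 and 0.240). The 2 CD163 probesets that rose in naïve tumours, by 1.56 and 1.45 (adjusted p = 0.046 and 0.0398), differed by 1.42 and 1.33 in relapsed tumours (adjusted p = 0.171 and 0.154), and the relapsed differences without healthy dog 1 were 1.99 and 1.84 (adjusted p = 0.0353 and 0.0294). Without sample 5 the naïve differences of these 2 probesets were 1.44 and 1.34 (adjusted p = 0.0607 and 0.0528), and CD14 fell by 0.64 (adjusted p = 0.021).

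The direct comparison of relapsed with naïve tumours called none of the 18 probesets, as it called 0.00% of the 43035 on the array (limma). None of the 18 had an unadjusted p under 0.05. Means were higher in relapsed tumours for 8 of the 9 genes, all but MSR1, with differences from −0.45 for MSR1 to 0.46 for CD36 and 0.45 for STAB1. For STAB1 the interval was −0.15 to 1.05, and for MARCO it was −0.83 to 1.45 around 0.31. The SD among relapsed tumours was smaller than among naïve tumours for 8 of the 9 genes. In CD68, for example, it was 0.288 against 0.944. Neither count of 8 genes was made over all genes, and the SDs were not tested. In the dog that gave sample 11 before and sample 12 after chemotherapy, 7 of 9 genes were higher in sample 12. MARCO went from 10.2 to 11.9, STAB1 from 9.58 to 10.4 and CSF1R from 8.01 to 8.81, while CD163 went from 9.15 to 8.39 and MSR1 from 6.67 to 6.21. This is 1 dog, and the change has no replicate.

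Healthy dog 1 stood apart from the other healthy dogs in these genes. It was the highest healthy dog in 9 of 9 genes and 17 of 18 probesets, and it exceeded every dog with DLBCL in 6 genes: MARCO, MSR1, STAB1, MRC1, CD163 and CSF1R. In MSR1 it had 10.6, with its 4 arrays at 10.2 to 11.2, while the 6 other healthy dogs lay between 5.86 and 7.34. In CD163 it had 12.5 against 7.36 to 10.9. The excess over the mean of the others was smallest for STAB1, at 1.22, and CD68, at 1.24. Without healthy dog 1, the brightest probesets of STAB1 and MARCO kept their calls in DLBCL against healthy nodes and those of MRC1 and CSF1R lost theirs. The dimmer MRC1 probesets then differed by −0.01 and 0.07 (limma adjusted p = 0.989 and 0.914) and that of CSF1R by −0.09 (adjusted p = 0.809). The dimmer STAB1 probeset differed by −0.46 (adjusted p = 0.253), and that of MARCO fell by 1.66 (adjusted p = 0.0247). The 2 CD163 probesets that rose then rose by 2.16 and 1.99 (adjusted p = 0.00207 and 0.00175), and the brightest CD163 probeset differed by 1.43 (adjusted p = 0.0608). By the means of gene lists described below, healthy dog 1 was also the highest healthy dog in each macrophage list. The same held for neutrophil (10.3), blood endothelial (9.86), lymphatic and sinus endothelial (10.6) and stroma genes (10.9). It was the lowest in T-cell (10.2), dendritic cell (9.54) and mitosis genes (8.07). How many of all genes had it as the highest healthy dog was not counted. It was also the healthy dog with RIN in the range of the tumours, and what sets it apart was not tested.

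**Figure D3:**
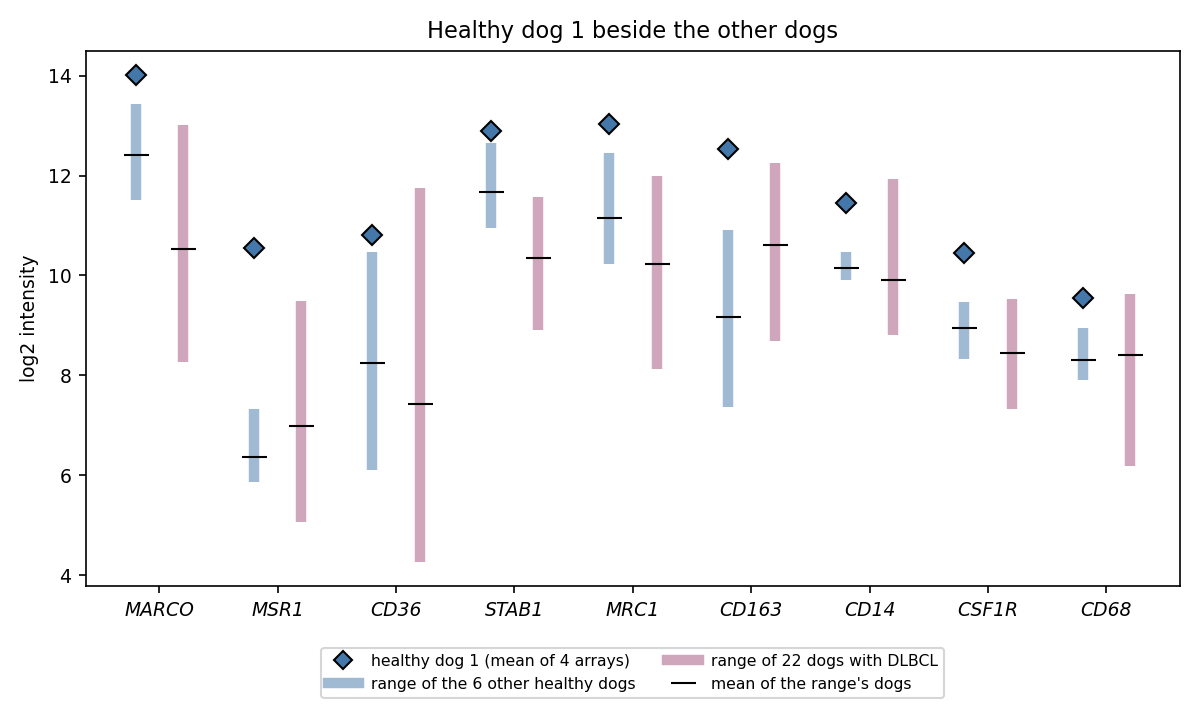
Log2 intensity (vertical axis) of the 9 genes in healthy dog 1 (diamonds, mean of 4 arrays), in the 6 other healthy dogs (blue bars from lowest to highest, mean as a line) and in 22 dogs with DLBCL (purple bars). Healthy dog 1 lies above the bar of the other healthy dogs in every gene, by most in MSR1, at 10.6 against a highest value of 7.34.

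With RIN as a covariate, 1 of the 18 probesets was called, that of STAB1, which fell by 2.37 ± 0.600 (SE, adjusted p = 0.036, by limma). Under the same fit the share of all probesets that fell was 1.16% and the share that rose 0.579%. MARCO differed by −2.96 (adjusted p = 0.184), CSF1R by −1.62 (adjusted p = 0.0787) and MRC1 by −1.86 (adjusted p = 0.355), with SE of 1.14, 0.488 and 0.947. The 2 CD163 probesets that rose turned to −0.39 and −0.17 (adjusted p = 0.918 and 0.965). This fit rests largely on healthy dog 1, the healthy animal whose RIN overlapped that of the tumours.

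Among the ligands and regulators that serve CSF1R and macrophage identity, 3 of 10 measured genes fell and 1 rose in DLBCL, where 14.8% of all genes fell and 20.0% rose, and the median difference was −0.28. IL34, the second ligand of CSF1R, fell by 0.80 (adjusted p = 0.000284), while CSF1 differed by 0.05 (adjusted p = 0.669). CSF2RA, the receptor chain for granulocyte-macrophage colony-stimulating factor, fell by 1.02 (adjusted p = 0.00162), and PPARG, a nuclear receptor of fat cells and of lipid-loaded macrophages, fell by 1.41 (adjusted p = 0.0209). SPI1, the transcription factor PU.1 of myeloid and B cells, differed by 0.27 (adjusted p = 0.166), and RUNX1 rose by 0.22 (adjusted p = 0.0112).

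Other scavenger and phagocytic receptors were mixed, with 4 of 20 measured genes lower and 1 higher, against the 14.8% and 20.0% of all genes, and a median difference of 0.00. CD5L, a protein secreted by tissue macrophages, fell by 2.08 (adjusted p = 0.00453). TYRO3, a receptor for apoptotic cells, fell by 0.81 (adjusted p = 5.21e-06), and CXCL16, a membrane-bound chemokine that also binds oxidised lipoprotein, fell by 0.78 (adjusted p = 0.012). CLEC7A, the beta-glucan receptor dectin-1, fell as well, by 0.72 (adjusted p = 0.0147). TIMD4, a phosphatidylserine receptor of resident macrophages, rose by 0.65 (adjusted p = 0.0349). LYVE1, a hyaluronan receptor of lymphatic endothelium and some macrophages, differed by −0.68 (adjusted p = 0.146), and STAB2 had no probeset with that single symbol.

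Of the genes that act with CD14 and CD163, 4 of 11 rose and 1 fell, against 20.0% and 14.8% of all genes, with a median difference of 0.26. LY96, also called MD-2, which completes the lipopolysaccharide receptor, rose by 0.74 (adjusted p = 0.00037), and MYD88, the adaptor below it, rose by 0.85 (adjusted p = 4.54e-05). BLVRB, an enzyme of haem breakdown, rose by 1.09 (adjusted p = 0.00978), and TLR2 rose by 0.47 (adjusted p = 0.0331). The ferritin heavy chain FTH1 fell by 1.26 (adjusted p = 1.25e-05). TLR4 itself differed by −0.08 (adjusted p = 0.777) and HMOX1, the haem oxygenase induced by haem uptake through CD163, by 0.26 (adjusted p = 0.470). HP, the gene of haptoglobin, had no probeset with that single symbol.

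Of 26 measured macrophage effector and lysosome genes, 2 fell and 2 rose, shares below the 14.8% and 20.0% of all genes, with a median of −0.11. ITGAX (CD11c) fell by 0.64 (adjusted p = 0.0309) and LYZ, lysozyme, by 0.32 (adjusted p = 0.0197). CCR2, the chemokine receptor of circulating monocytes, rose by 1.49 (adjusted p = 0.00244), and its ligand CCL2 rose by 0.74 (adjusted p = 0.0406). C1QA, a chain of complement C1q made by macrophages, differed by −0.81 (adjusted p = 0.0816) and TYROBP, the signalling adaptor of myeloid receptors, by −0.65 (adjusted p = 0.115). The mean of the 26 genes was 9.97 to 11.6 in DLBCL and 10.2 to 11.1 in healthy nodes. Sample 5 was the one tumour above every healthy dog, and the next highest tumour was at 11.03.

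Markers of other cell types were counted in the same comparison, in which 14.8% of all genes fell and 20.0% rose. T-cell genes fell in 11 of 13 cases, with a mean level of 7.51 to 9.65 in DLBCL and 10.2 to 11.1 in healthy nodes, and dendritic cell genes fell in 7 of 10 and rose in 1, at 7.94 to 9.15 against 9.54 to 9.97. Blood endothelial genes fell in 5 of 11, with means of 7.65 to 9.01 against 8.54 to 9.86, and genes of lymphatic and sinus endothelium in 2 of 8, with means of 7.70 to 9.69 against 8.71 to 10.6. In the latter list CCL21, the chemokine of lymphatic endothelium and stroma, fell by 2.67 (adjusted p = 0.000236), and RELN fell by 1.499 (adjusted p = 0.000266). Adipocyte genes fell in 7 of 10, with means of 5.82 to 10.96 against 7.06 to 10.2. ADIPOQ, the fat cell hormone adiponectin, fell by 2.84 (adjusted p = 0.0107), CIDEC, a lipid droplet protein, fell by 2.67 (adjusted p = 0.0244), PCK1 fell by 2.403 (adjusted p = 0.0288) and FABP4, the fatty acid binding protein of fat cells, by 1.64 (adjusted p = 0.0407). The lowest mean of any of these lists in a dog, 5.82, lay above the control probesets. The part of these cell types in the differences of STAB1, MRC1 and CD36 was not tested. In fits chosen after seeing the data, the other scavenger receptors had 3 lower and 3 higher genes without healthy dog 1, and the adipocyte list had 5 lower. Without that dog 12.5% of all probesets fell and 16.4% rose. With RIN as a covariate none of the genes in the 4 macrophage lists, the adipocyte list or either endothelial list was called, and 3 of 13 T-cell genes were lower. In the RIN fit 1.16% of all probesets fell and 0.579% rose.

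Across the 22 dogs with DLBCL the 9 genes varied together. Of their 36 pairs, 35 had a Pearson r above 0 and the median r was 0.495. By permutation, 20 pairs passed an adjusted p under 0.05, all with a positive r. The same counts were not made for pairs of other genes, so they do not show a trait particular to these 9. Spearman's rho also called 20, and 19 pairs were called by both. STAB1 had the highest mean r with the other 8 genes, at 0.622, followed by CD163 at 0.581 and CD14 at 0.520. CD36, at 0.322, and CD68, at 0.349, had the lowest. STAB1 and CD163 were each called with 7 of 8 partners, and MARCO and CD36 with 2 each. The median r was 0.481 in naïve tumours alone and 0.470 after RIN was regressed out. The days on which arrays were run and the batches of RNA extraction were not used here, and their part was not tested.

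**Figure D4:**
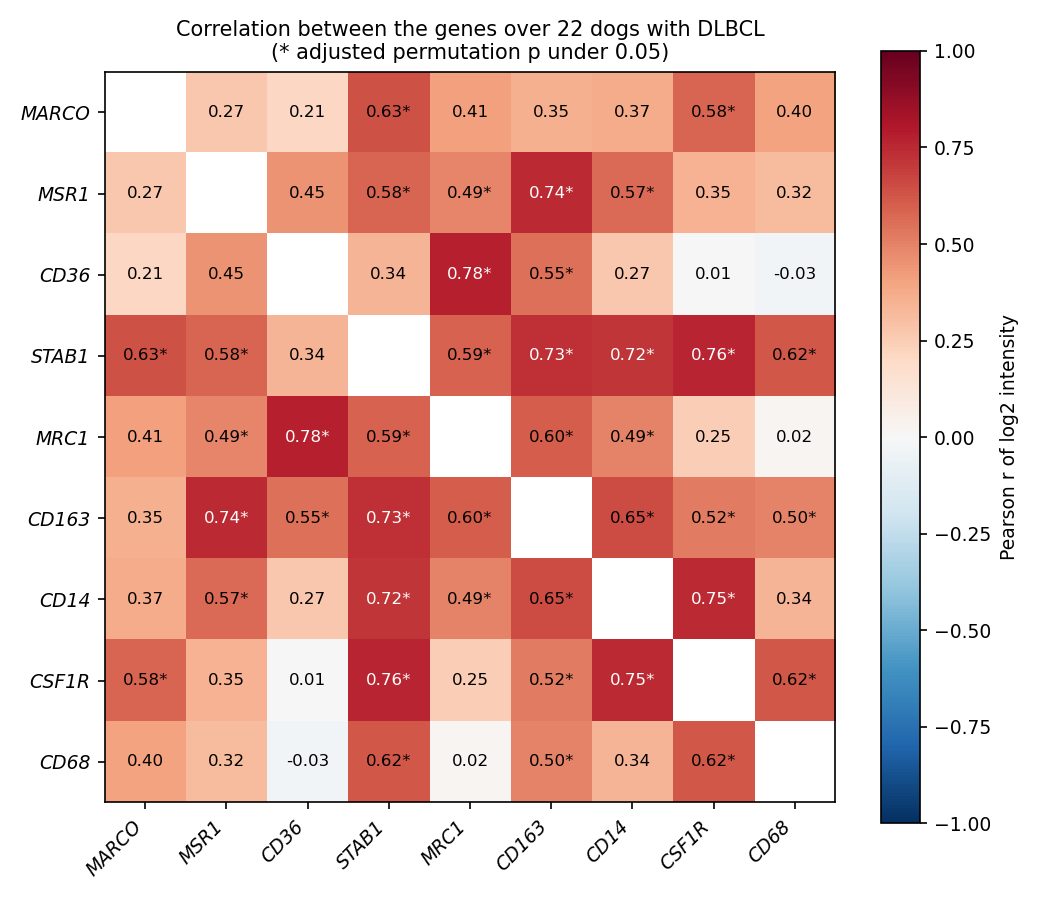
Pearson r of log2 intensity between the 9 genes (rows and columns) over 22 dogs with DLBCL, coloured from −1 to 1, with an asterisk at an adjusted permutation p under 0.05. STAB1 and CD163 are marked with 7 of their 8 partners, and CD36 is marked with MRC1 and CD163 alone.

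MRC1 and CD36 were the closest pair, with r = 0.780 (permutation p = 1e-05, the smallest that 100000 permutations can give, adjusted p = 0.00036) and rho = 0.811 (p = 3e-05). Without the tumours farthest from the MRC1 median, samples 16 and 23, r was 0.720. CSF1R and STAB1 had r = 0.765 (permutation p = 5e-05, adjusted p = 0.0009) and rho = 0.729 (p = 0.00016), with r = 0.712 without samples 22 and 5. CD14 and CSF1R had r = 0.748 (permutation p = 8e-05, adjusted p = 0.0009) and rho = 0.671 (p = 0.00093), with r = 0.647 without samples 6 and 5. At the other end, CD68 and CD36 had r = −0.03 (permutation p = 0.904, adjusted p = 0.955; rho = 0.277, p = 0.212), with r = 0.347 without samples 15 and 22. CSF1R and CD36 had r = 0.01 (permutation p = 0.973, adjusted p = 0.973; rho = 0.173, p = 0.440), with r = 0.282 without samples 22 and 5. MRC1 and CD68 had r = 0.02 (permutation p = 0.928, adjusted p = 0.955; rho = 0.123, p = 0.585), with r = −0.0046 without samples 16 and 23. The low values of these 3 pairs rest in part on sample 22, the tumour with the highest CD36 and the lowest CD68 and CSF1R, since without it r was 0.464, 0.352 and 0.203.

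The 9 genes also differed in which other genes ran closest to them over the same 22 dogs, out of 12609 genes above the 25th percentile of mean intensity (Pearson r, given as a description). CD36 ran with FABP4 (r = 0.920) and LPL, lipoprotein lipase (r = 0.874), followed by PDK4, a kinase that spares glucose in fat-burning tissue, and CAV2, a caveolin. MRC1 ran with TMEM47 (r = 0.907), the chemokine CCL14 (r = 0.903), F13A1, a chain of coagulation factor XIII made by macrophages, and the matrix protein EFEMP1. CD163 shared F13A1 as its closest gene (r = 0.837), followed by PCOLCE2, the endocytic adaptor DAB2 and the chemokine CCL8. STAB1 ran with NPL (r = 0.849), SIGLEC1, the sialic acid receptor of sinus macrophages (r = 0.841), TCN2, the plasma carrier of vitamin B12, and EPB41L3. CD14 ran with the integrin chain ITGA5 (r = 0.931), ARAP3 (r = 0.927), the lymphotoxin receptor LTBR and PLEKHG3. CSF1R ran with ATP6AP1, a subunit of the lysosomal proton pump (r = 0.909), and with CTSS, the cathepsin that trims class II invariant chain (r = 0.894), then with LOC484897 and the adhesion molecule ICAM1. For CD68 they were PDCD1LG2, the ligand PD-L2 (r = 0.768), TMEM106A, the lysosomal protease CTSD (r = 0.750) and the iron exporter SLC40A1. For MARCO they were SLC46A2 (r = 0.831), LOC490356, TXK and CD5L (r = 0.752). MSR1 had CD163 among its 4 closest (r = 0.743), with BNC2 (r = 0.756), PID1 and CYBRD1. CD14 had 70 genes at r above 0.8 and CSF1R had 57, whereas MSR1 and CD68 had none. Sample 5 stood apart in CD14, at 11.9 with the next tumour at 10.5, and these r were not computed without it.

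Each gene was also set against the mean of 14 gene lists over the 22 dogs, which made 126 relations, of which 53 passed an adjusted permutation p under 0.05. The share of all genes related to these lists was not counted. Other scavenger receptors were positively related to 8 of the 9 genes, as were the CSF1R ligands and transcription factors, while the partners of CD14 and CD163 were related to 7 and the effector and lysosome genes to 6. These counts are by Pearson's r. Spearman's rho did not call MARCO with the partners (rho = 0.431, adjusted permutation p = 0.0896), where r went from 0.509 to 0.263 without samples 23 and 21. It did call MARCO with the effector genes (rho = 0.556, adjusted permutation p = 0.0211). STAB1 followed the other scavenger receptors at r = 0.891 (permutation p = 1e-05, adjusted p = 0.00014; rho = 0.880, p = 1e-05), and without samples 18 and 5 r was 0.873. CD14 followed the effector genes at r = 0.893 (permutation p = 1e-05, adjusted p = 0.00014; rho = 0.867, p = 1e-05), with r = 0.815 without samples 18 and 5. CSF1R followed the same list at r = 0.864 (permutation p = 1e-05, adjusted p = 0.00014; rho = 0.791, p = 4e-05), with r = 0.810 without them. CD68 was related to 3 lists, of which the partners of CD14 and CD163 gave the highest r, 0.684 (permutation p = 0.00045, adjusted p = 0.00288; rho = 0.669, p = 0.00094; 0.601 without samples 23 and 21).

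MRC1 and CD36 had their highest r with lists of other tissues. The lymphatic and sinus endothelium list was not particular to them, since it was called with 5 of the 9 genes. STAB1 had r = 0.615 with it (adjusted permutation p = 0.00906), CD163 had 0.600 (adjusted permutation p = 0.0131) and CD14 had 0.580 (adjusted permutation p = 0.0100). MRC1 ran with lymphatic and sinus endothelium at r = 0.942 (permutation p = 1e-05, adjusted p = 0.00014; rho = 0.928, p = 1e-05), and without samples 16 and 18 r was 0.932. Among the macrophage lists, MRC1 was called with the CSF1R ligands and transcription factors at r = 0.657 (permutation p = 0.00113, adjusted p = 0.00491, rho = 0.717, p = 0.0003, 0.601 without samples 5 and 18) and with the other scavenger receptors at r = 0.591 (permutation p = 0.00397, adjusted p = 0.0131, rho = 0.587, p = 0.00485, 0.522 without the same samples). Its r with the effector genes was 0.45 (permutation p = 0.0328, adjusted p = 0.0689). CD36 was called with the CSF1R ligands and transcription factors too, at r = 0.602 (permutation p = 0.00287, adjusted p = 0.0103, rho = 0.648, p = 0.00141, 0.533 without samples 5 and 18). These lists share genes with those of other tissues. PPARG is also in the adipocyte list, and LYVE1 is in both the other scavenger receptor list and the lymphatic and sinus endothelium list. The r without the shared genes was not computed. CD36 ran with the adipocyte genes at r = 0.877 (permutation p = 1e-05, adjusted p = 0.00014; rho = 0.866, p = 1e-05), with r = 0.820 without samples 18 and 22. CD36 ran with lymphatic and sinus endothelium at r = 0.743 (permutation p = 1e-05, adjusted p = 0.00014; rho = 0.80, p = 2e-05; 0.669 without samples 16 and 18). MRC1 was also related to the adipocyte genes, at r = 0.569 (permutation p = 0.00404, adjusted p = 0.0131; rho = 0.558, p = 0.00797; 0.535 without samples 18 and 22). None of the other 7 genes was called with the adipocyte list, but these values depend on sample 22, without which r went from 0.138 to 0.542 for STAB1, from −0.16 to 0.488 for CD68, from 0.350 to 0.483 for CD163 and from −0.09 to 0.385 for CSF1R. Blood endothelium was related to 6 of the 9 genes, with the highest r for MRC1, 0.720 (permutation p = 0.00017, adjusted p = 0.00165; rho = 0.750, p = 9e-05; 0.713 without samples 3 and 20). Without sample 22 the highest r with blood endothelium was that of STAB1, 0.861, and MRC1 had 0.702. Points in these relations share the array and its RNA.

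**Figure D5:**
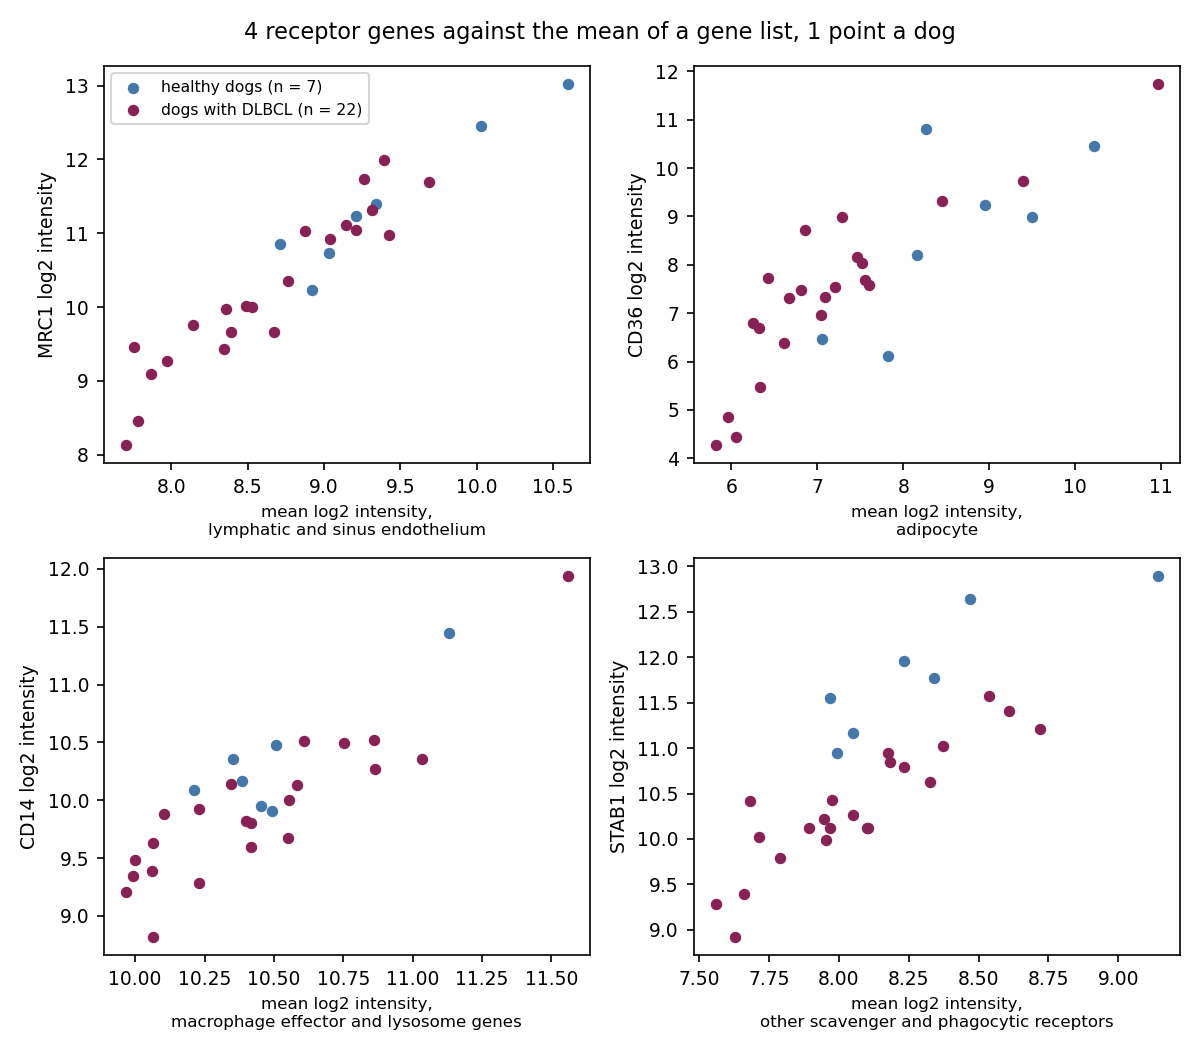
Log2 intensity of MRC1, CD36, CD14 and STAB1 (vertical axes) against the mean log2 intensity of a gene list (horizontal axes) in 7 healthy dogs and 22 dogs with DLBCL, 1 point a dog. Over the tumours r was 0.942 for MRC1, 0.877 for CD36, 0.893 for CD14 and 0.891 for STAB1.

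B-cell genes ran against 3 of the receptors. CD14 had r = −0.76 with the B-cell mean (permutation p = 0.00109, adjusted p = 0.0049; rho = −0.45, p = 0.0378), CSF1R had r = −0.52 (permutation p = 0.0068, adjusted p = 0.019; rho = −0.28, p = 0.206) and CD163 had r = −0.43 (permutation p = 0.00394, adjusted p = 0.0131; rho = −0.61, p = 0.00362). The first 2 rest on sample 5, without which r was −0.43 and −0.34, and without samples 21 and 5 r was −0.38 and −0.12. For CD163, r was −0.54 without sample 5 and −0.50 without samples 21 and 5. T-cell genes were positively related to 4 of the receptors, with the highest r for CSF1R, 0.662 (permutation p = 0.00075, adjusted p = 0.00378; rho = 0.645, p = 0.00157; 0.642 without samples 23 and 20). Of these, Spearman's rho called CSF1R and CD14, but not MARCO (rho = 0.471, adjusted permutation p = 0.0597) or STAB1 (rho = 0.385, adjusted permutation p = 0.137). For STAB1, r went from 0.493 to 0.258 without samples 23 and 20. Neutrophil genes were related to CD14 alone, at r = 0.588 (permutation p = 0.00784, adjusted p = 0.021; rho = 0.405, p = 0.0624), a relation that rests on sample 5, without which r was 0.233, and r was 0.323 without samples 9 and 5.

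A few tumours held most of the high values. Sample 23, a naïve tumour, was among the 3 highest of the 22 dogs in 8 of 9 genes and the highest in 4, MARCO, MRC1, CD68 and STAB1. Sample 5, also naïve, was among the 3 highest in 5 genes and had the highest CD163, CD14 and CSF1R. Its B-cell list mean of 7.76 lay below the 10.2 to 11.2 of the other tumours and its neutrophil list mean of 10.02 was the highest, with the next tumour at 8.79. The part of these in its values was not tested. Sample 18 was the highest of the 7 relapsed tumours in 6 genes. At the low end, sample 15 was among the 3 lowest in 5 genes and sample 16 in 4, the latter with the lowest MARCO and MRC1. Sample 22 was split, with the highest CD36 of all dogs at 11.7 and the lowest CD68, at 6.19, and CSF1R, at 7.34. Its adipocyte list mean of 10.96 was also the highest of the tumours.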

How the data were processed

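RNA of 33 lymph node samples was measured on Affymetrix Canine Genome 2.0 arrays. The authors deposited log2 values, 1 per probeset and array, summarised with RMA in the Affymetrix Expression Console per the labels, which also name Partek for their ANOVA. No tool versions were taken over from them. RMA gives all arrays 1 distribution and compresses changes of dim probesets. RNA extraction ran in balanced random batches that were not assigned to samples here. Values ran from 2.2 to 15.49 and were used as deposited, with 0 sample columns left unused. The number of arrays limits the precision.

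Groups came from the labels on previous chemotherapy and disease state. Arrays of 1 case number were averaged. limma 3.58.1 (R 4.3.3) compared the 22 and 7 dogs, and the naïve, relapsed and healthy units in 1 fit of 3 groups, with Benjamini-Hochberg adjustment over 43035 probesets at an adjusted p of 0.05. Each dog counted once except the one with samples 11 and 12, which entered both tumour groups of that fit. Intervals are at 95%. Symbols came from the platform annotation: 29264 probesets had 1 symbol, 439 several and 13332 were unnamed here. Correlations used 100000 permutations, two-sided, in Python 3.11.15 with numpy 2.4.6, scipy 1.17.1 and pandas 2.3.3, and plots matplotlib 3.10.9.

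The genes and lists were chosen with earlier results of these data known. Named are all 9 genes, up to 3 of the most changed called members of a list, a few fixed partners, the 4 genes most like each receptor and the 3 highest and lowest pairs. RUNX1, CLEC7A, TIMD4, TLR2 and LYZ lie outside that rule and were named after their values were seen. The procedure was tested on simulated data. The fits were repeated on all 33 arrays, without and with a random block for the dog and with the methods' ANOVA, with RIN added, after filtering dim probesets (25th percentile) or rescaling arrays, without single dogs, with the replicate block, and on averaged probesets per gene.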

Additional observations from a re-analysis of the deposited data

Results flagged for a closer look

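Within the 7 healthy or the 7 relapsed samples of each gene, 18 groups were tested for 1 sample far from the rest, by the gap to its neighbour over the range of the group (Dixon's critical value 0.568), and 2 were found. Both are healthy dog 1. Its MSR1 level of 10.6 stood 0.686 of the range above the nearest healthy dog, at 7.34, and its CD14 level of 11.4 stood 0.629 of the range above the nearest, at 10.5. Chance marks about 1 in 20 such groups.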

How the results depend on the processing

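Of 18 probesets, 5 fell and 2 rose in DLBCL. Treating the 33 arrays as separate samples, or running the methods' ANOVA on them, gave 11 lower and 0 higher. With the arrays separate, 17.3% of all probesets fell and 25.8% rose, against 13.6% and 19% in the main fit. The cause of these and the other shifts was not tested. The dog as a random block (correlation 0.576) gave 6 lower and 0 higher. With RIN as a covariate 1 was lower and 0 higher, where 1.16% of all probesets fell and 0.579% rose. Under RIN, 3 were lower and 0 higher in naïve tumours and 0 lower in relapsed ones. The CD163 probesets that rose reversed under RIN to −0.39 and −0.17 in DLBCL and to −0.31 and −0.0933 in naïve tumours. Leaving out 1 healthy dog at a time gave 3 to 6 lower, with 3 without healthy dogs 1 or 2, and 0 to 2 higher, with 0 without healthy dogs 3, 4, 6 or 7. Of all probesets, 12.5% fell and 16.4% rose in DLBCL without healthy dog 1. Without healthy dog 1 there were 3 lower in naïve tumours, and 1 lower and 2 higher in relapsed ones. Without sample 5, 1 was higher in naïve tumours. By the mean of a gene's probesets 2 genes fell, in place of 4. The replicate block on sample numbers gave 8 lower and 0 higher, where 14.3% of all probesets fell and 18.7% rose. Such shares were not counted for the settings where none is given. The 9 shared numbers correlated at −0.142 to 0.13, with 2 over 0.1, which alone cannot show whether the numbers pair samples. By the case numbers 4 of the healthy arrays are of 1 animal, while the DLBCL samples with those numbers are of separate animals. The filter on dim probesets, centring and quantile normalization gave the same 5 and 2 in DLBCL. Of 548 values of single probesets under an alternative, 41 changed sign without a call in either fit, 14 of them of MSR1. The median r of the pairs ran from 0.434 to 0.540 under its alternatives. The settings without sample 22 were chosen after seeing the data. The direct test of relapsed against naïve tumours called 0 member probesets under every alternative run for it. Healthy dogs are 7, and differences under about 1 log2 unit in the more variable genes lie within their spread.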

Other observations

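Among the lists not described above, 1 of 9 neutrophil genes fell, 2 of 9 B-cell genes rose, 3 of 12 stroma genes fell and 1 rose, and 1 of 6 platelet genes fell and 1 rose in DLBCL against healthy nodes (limma). Of all genes, 14.8% fell and 20.0% rose in this comparison. Over the 22 dogs with DLBCL none of the 9 genes was called with the mean of 10 mitosis genes, with a median r of −0.086, or with the mean of 6 platelet genes, with a median r of 0.113 and the highest r for MRC1, 0.451 (permutation p = 0.0283, adjusted p = 0.0616, rho = 0.478, p = 0.0255, 0.281 without samples 20 and 14), although 9 of the 10 mitosis genes rose in DLBCL against healthy nodes. By Pearson's r the stroma list was called with MRC1 alone, at r = 0.696 (permutation p = 0.00048, adjusted p = 0.00288; rho = 0.653, p = 0.00149; 0.595 without samples 20 and 21). Spearman's rho also called it with CD14, STAB1, CD36 and CD163, at 0.577, 0.566, 0.553 and 0.542 (adjusted permutation p = 0.0178, 0.0203, 0.0223 and 0.0257). For CD163, r went from 0.432 to 0.696 without samples 20 and 21. Dendritic cell genes were called with MARCO, at r = 0.571 (permutation p = 0.00564, adjusted p = 0.0169; rho = 0.608, p = 0.00341; 0.622 without samples 18 and 25), and with CSF1R, at r = 0.491 (permutation p = 0.0207, adjusted p = 0.0491; rho = 0.528, p = 0.0128; 0.461 without the same samples).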
